A study of Saccharomyces cerevisiae with 16 samples.

Results

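The line labelled WT of the budding yeast Saccharomyces cerevisiae was followed at 0, 45, 90 and 150 min after methionine was taken out of its medium. Its members are the 4 arrays whose titles carry WT, of 16 arrays in all, with 1 array per time and all 4 on the same slide. Per the series record, these cells lack their own HOG1 gene and carry wild-type HOG1 placed behind the promoter of MET3. The comparisons set WT at 45, 90 and 150 min against WT at 0 min, and the change of line WT against the change of line H and of line vec over the same times. Line vec carries an empty plasmid in cells named JBY13. Line H carries a HOG1 gene behind the same promoter, but its label fields disagree on the mutation, so none is assigned to it here. Line 170, whose fields also disagree, enters the fits and some counts. All lines went through the removal of methionine, and no culture with methionine left in was measured. The labels give no growth medium, no osmotic stress and no repeat culture.

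Hog1 is the mitogen-activated protein kinase at the end of the yeast response to high osmolarity. When its kinase Pbs2 phosphorylates it, Hog1 moves into the nucleus and, through factors such as Hot1, Sko1 and Msn2 with Msn4, switches on genes for glycerol synthesis and uptake and for protection from stress. The MET3 promoter is held down while cells have methionine and turns up when methionine is gone. The other genes that take up sulfate and build it into methionine and cysteine turn up with it. A plasmid gene behind this promoter therefore rises along with the cell's own answer to missing methionine.

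Levels are the log2 of Agilent's processed signal minus the 75th percentile of the array, so that 0 is the signal below which 75% of the probes lie. A change is the mean of 45, 90 and 150 min minus 0 min in log2 units, given with limma's standard error, and a gene was called at an adjusted p under 0.05. For a change within WT the error comes from the spread of the 3 later arrays within each of the 4 lines. It measures how steady a value was after removal and not how much cultures vary. For differences between lines the fit also takes out the time course common to the 4 lines. The error there is the spread left after that, and it measures neither steadiness nor how much cultures vary. The signal at the 75th percentile was 5505, 8293, 9050 and 7913 units on the WT arrays at 0, 45, 90 and 150 min, and 97.4%, 93.4%, 97.7% and 98.0% of their spots lay well above background. The array at 45 min stood apart, with 314 genes not well above background, against 83, 58 and 48 at 0, 90 and 150 min. No spot was saturated. The 7 genes specific to a cells lay between -2.58 and 1.87 on the WT arrays, the 5 specific to alpha cells between -8.96 and -1.89, and 9 meiotic genes between -7.29 and -0.00. MF(ALPHA)1 and MF(ALPHA)2, the alpha pheromone genes, were not well above background at 45 min.

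HOG1 (YLR113W) had levels of 1.90, 5.64, 5.49 and 5.74 at 0, 45, 90 and 150 min in line WT. The 3 later arrays lay within 0.24 of each other, and all lay far above 0 min. HOG1 rose by 3.73 ± 0.15 (13.2-fold, limma adjusted p = 6.7e-07), the lowest adjusted p of all genes tested. In line vec the HOG1 probe read -1.67, -2.31, -2.12 and -2.14 at the same times. The change of HOG1 in WT minus that in vec was 4.24 ± 0.18 (adjusted p = 1.8e-05, limma). HOG1 was above its vec level at 0 min too, by 3.57 log2 units. Which part of the chromosomal gene was removed, and where in the gene the probe lies, is not given in the sources used here.

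MET3 (YJR010W), the gene for ATP sulfurylase, had levels of -2.82, 2.71, 1.32 and 2.56 in line WT. It rose by 5.02 ± 0.62 (32.4-fold, limma adjusted p = 1.2e-04). Its level at 90 min lay 1.38 below that at 45 min and 1.24 below that at 150 min, while HOG1 behind the same promoter lay 0.15 and 0.24 below. In line vec MET3 had levels of -2.48, 1.44, 2.73 and 3.21, each later time higher. The change of MET3 in WT minus that in vec was 0.08 ± 0.84 (adjusted p = 0.97), and without the WT array at 45 min it was -0.33. In RNA from whole cultures, a change in the share of cells that express a gene and a change in RNA per cell cannot be told apart.

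Over all genes, 2926 of 6165 (47.5%) were called between the later times and 0 min in line WT by limma. Of these, 1236 were higher (20.0% of the genes tested) and 1690 lower (27.4%). Without the array at 45 min 2757 were called. The median gene stood at -0.22, -0.12 and -0.08 from 0 min at 45, 90 and 150 min with scaling on the 75th percentile. With scaling on the median of the array it stood at -0.06, -0.04 and 0.00. List medians below are to be read against that of all genes, -0.13, and counts of called members against the 20.0% higher and 27.4% lower.

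**Figure D1:**
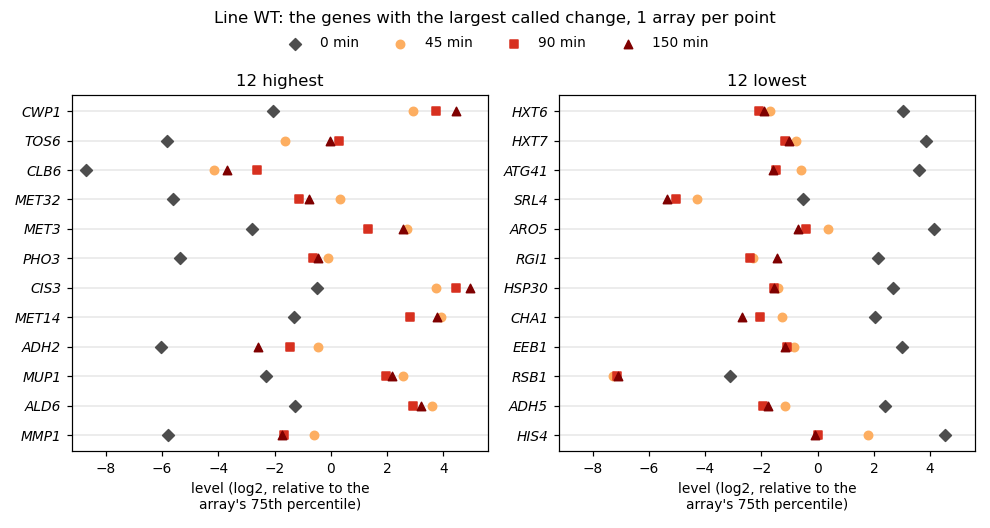
Levels in line WT (log2 of the processed signal minus the array's 75th percentile) of the 12 genes with the highest called change and the 12 with the lowest, with 1 point per array and a marker per time. In every one of these 24 genes the 3 later arrays lie on the same side of the 0-min array.

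The 12 highest changes were in genes of sulfur uptake, the cell wall, cell cycle entry and metabolism. CWP1, a mannoprotein gene of the cell wall, had levels of -2.04, 2.91, 3.74 and 4.47 and rose by 5.74 ± 0.50 (53.6-fold, limma adjusted p = 1.4e-05). TOS6, another cell wall protein gene, had levels of -5.82, -1.61, 0.30 and -0.05 and rose by 5.37 ± 0.87. CIS3, a cell wall glycoprotein gene, had levels of -0.48, 3.74, 4.45 and 4.96 and rose by 4.86 ± 0.47. In CWP1 and CIS3 each later time was higher than the one before, while TOS6 was highest at 90 min. The S-phase cyclin gene CLB6 had levels of -8.72, -4.17, -2.63 and -3.70, and its spots were not well above background at 0 min. As read, CLB6 was 37.3-fold higher over the later times (limma adjusted p = 2.1e-04). The size is uncertain, since it rests on that value at 0 min. PHO3, an acid phosphatase gene, had levels of -5.35, -0.12, -0.63 and -0.46 and rose by 4.95 ± 0.48. The alcohol dehydrogenase gene ADH2, which glucose represses in most strains, had levels of -6.05, -0.47, -1.45 and -2.58. Its change of 4.55 ± 1.23 (adjusted p = 0.012, limma) had the largest error of the 12, with each later time lower than the one before. ALD6, the cytosolic acetaldehyde dehydrogenase gene, had levels of -1.28, 3.61, 2.92 and 3.20 and rose by 4.53 ± 0.55. MET32, MET3, MET14, MUP1 and MMP1 made up the rest.

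The 12 lowest changes were led by HXT6 and HXT7, which encode glucose transporters of high affinity. HXT6 had levels of 3.03, -1.70, -2.09 and -1.90 and fell by 4.92 ± 0.49 (limma adjusted p = 2.9e-05). HXT7 had levels of 3.84, -0.79, -1.16 and -1.01 and fell by 4.82 ± 0.48. These genes are near-identical copies whose probes may read each other's transcripts, so how much each of them fell is uncertain. ATG41, an autophagy gene, had levels of 3.59, -0.58, -1.49 and -1.59 and fell by 4.81 ± 0.66. The heat shock membrane protein gene HSP30 fell by 4.19 ± 0.38, and RGI1, a gene of respiratory growth, fell by 4.20 ± 0.66. The serine and threonine deaminase gene CHA1 had levels of 2.06, -1.28, -2.06 and -2.68, each later time lower than the one before. Its change was -4.06 ± 0.65. EEB1, which encodes an enzyme that makes ethyl esters, fell by 4.04 ± 0.41, and the alcohol dehydrogenase gene ADH5 fell by 4.03 ± 0.47. HIS4 of histidine synthesis had levels of 4.52, 1.78, 0.02 and -0.09 and fell by 3.95 ± 0.87. SRL4 (-4.38 ± 0.67) and ARO5 (-4.38 ± 0.54) fell with them, as did RSB1 (-4.03 ± 0.32), whose spots were well above background on 2 of the 3 later arrays.

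Genes of sulfate assimilation, which reduce sulfate to sulfide, rose in 5 of 8 cases, and 3 were not called. The list had a median change of 2.10. MET14, the adenylylsulfate kinase gene, had levels of -1.32, 3.90, 2.83 and 3.76 and rose by 4.82 ± 0.52 (limma adjusted p = 4.6e-05). MET5 and MET10, which encode the subunits of sulfite reductase, rose by 3.65 ± 0.64 and 2.30 ± 0.65, and MET8, whose enzyme makes their siroheme, by 1.90 ± 0.55. Of 19 genes of methionine and cysteine synthesis, 8 rose, 3 fell and 8 were not called, with a median of 1.43. CYS3, the cystathionine gamma-lyase gene, had levels of 1.36, 4.97, 4.18 and 4.62 and rose by 3.23 ± 0.31. SAM1, an S-adenosylmethionine synthetase gene, rose by 3.22 ± 0.56, and CYS4 (2.18 ± 0.39) and MHT1 (2.54 ± 0.40) rose with it. STR2, which encodes cystathionine gamma-synthase of the path from cysteine back to methionine, had levels of 1.27, -1.68, -1.96 and -1.76. It fell by 3.07 ± 0.20 (limma adjusted p = 4.3e-06). HOM2 (-1.78 ± 0.39) and HOM3 (-1.62 ± 0.36) of the shared path to threonine and methionine fell too.

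Of 10 transporter genes for sulfur compounds, 5 rose and 5 were not called, with a median of 1.36. The sulfate permease gene SUL2 had levels of -3.24, 1.37, 0.55 and 1.39 and rose by 4.34 ± 0.73 (limma adjusted p = 7.7e-04). The other sulfate permease gene, SUL1, had levels of -5.27, -0.87, -2.90 and -0.94. Its change of 3.70 ± 1.30 (adjusted p = 0.037, limma) was no longer called without 45 min (3.35), without 150 min (3.38) or with normexp (3.23). MUP1, the high-affinity methionine permease gene, rose by 4.53 ± 0.36, and MMP1, the S-methylmethionine permease gene, by 4.48 ± 0.60, while GNP1, a broader amino acid permease gene, rose by 1.82 ± 0.19. Of 6 regulators of the pathway 1 rose, 1 fell and 4 were not called. MET32, which encodes a DNA-binding zinc finger protein of the pathway, had levels of -5.62, 0.33, -1.12 and -0.78 and rose by 5.09 ± 0.63. MET4, the activator gene of the pathway, had levels of -0.77, -1.93, -1.96 and -2.12 and fell by 1.24 ± 0.18 (limma adjusted p = 3.4e-04).

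The sulfur genes shared a low value at 90 min among the later times. All 8 sulfate assimilation genes were lower at 90 min than at both 45 and 150 min, against 1044 of all 6165 genes (16.9%). So were 14 of 19 genes of methionine and cysteine synthesis and 7 of 10 transporter genes. The median step of the sulfate assimilation genes was -1.09 between 45 and 90 min and 0.84 between 90 and 150 min, and that of all genes was 0.07 and -0.01. Of the 19 genes of the sulfur lists that rose in WT, 17 were lowest at 90 min there, 15 in line 170, 6 in line H and 0 in line vec. Over all genes the shares were 16.9% in WT, 14.9% in H and 24.0% in vec, with 763 of 6165 genes in line 170. The order within these lists was counted after the values had been seen, was not tested, and rests on 1 array per time. It held for 8 of 8 sulfate assimilation genes with median scaling, quantile normalization and normexp.

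Genes that build ribosomes rose nearly as whole sets. Of 136 ribosomal protein genes, 133 were called higher, 1 lower and 2 not, with a median of 2.34, and the counts were the same without 45 min. RPL9A had levels of 0.45, 4.15, 4.67 and 4.58 and rose by 4.02 ± 0.26 (16.2-fold, limma adjusted p = 4.3e-06). RPS22B (3.67 ± 0.38), RPL18B (3.49 ± 0.51) and RPS22A (3.43 ± 0.20) rose as well. RPL15B had levels of 0.32, -0.23, -0.19 and -0.34 and fell by 0.57 ± 0.18 (adjusted p = 0.023, limma). RPL15B was no longer called with median scaling (-0.46) or without 150 min (-0.53). Many of these genes have a near-identical copy, whose transcripts their probes may not tell apart.

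Ribosome biogenesis genes, which make and assemble ribosomal RNA, rose in 58 of 70 cases, with none lower and a median of 1.72. DBP2, a DEAD-box helicase gene, had levels of -2.96, 1.74, 1.56 and 0.68 and rose by 4.28 ± 0.61 (limma adjusted p = 2.7e-04). The helicase gene HAS1 had levels of -3.16, 1.0, 0.83 and 0.10 and rose by 3.80 ± 0.63. NSR1, a nucleolar protein gene, rose by 3.02 ± 0.63, and NOP1, the fibrillarin gene, by 2.99 ± 0.49. Without the array at 45 min 44 of the 70 were called. Subunit and factor genes of RNA polymerases I and III rose in 17 of 24 cases, RPA49 by 2.45 ± 0.59 among them, with a median of 1.46 and 13 called without 45 min. Of 66 mitochondrial ribosomal protein genes, 24 rose and 3 fell, with a median of only 0.34, led by MRPL49 (1.1 ± 0.26). The 3 were MRP8 (-1.44 ± 0.37), RSM22 (-1.34 ± 0.39) and MRPL28 (-0.48 ± 0.17), all taken into the list by their symbols.

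Cytosolic ribosomal protein genes and biogenesis genes differed in their order over the later times. In line WT 69 of 70 biogenesis genes were lower at each later time than at the one before, against 1509 of all 6165 genes (24.5%). In line vec 54 of 70 showed the same order, against 25.3% of all genes. The median difference of the biogenesis genes from 0 min in WT was 2.11, 1.80 and 1.28 at 45, 90 and 150 min. Of the ribosomal protein genes 114 of 136 were highest at 90 min, with medians of 2.20, 2.47 and 2.37, against 1616 of all genes (26.2%). In line vec 117 of 136 had that order, against 27.6% of all genes.

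**Figure D2:**
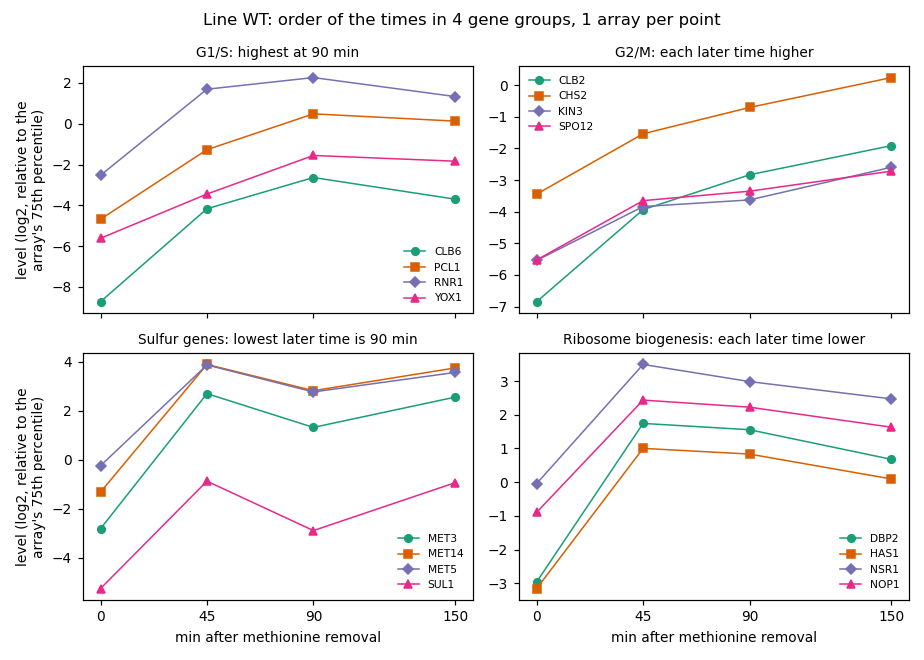
Levels in line WT (log2 relative to the array's 75th percentile) against min after methionine removal for 4 genes in each of 4 groups, with 1 array per point. The G1/S genes peak at 90 min, the G2/M genes stand higher at each later time, the sulfur genes dip at 90 min, and the ribosome biogenesis genes stand lower at each later time after 45 min.

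Among cell cycle genes, 24 of the 31 of the G1/S class, switched on as cells commit to division, rose, 7 were not called and none fell, with a median of 1.47. PCL1, a G1 cyclin gene, had levels of -4.68, -1.27, 0.49 and 0.13 and rose by 4.46 ± 0.83 (22.0-fold, limma adjusted p = 0.0015). RNR1, the large subunit of ribonucleotide reductase, had levels of -2.52, 1.69, 2.26 and 1.33 and rose by 4.29 ± 0.50. YOX1, a repressor gene of the cycle, rose by 3.33 ± 0.88. In 30 of the 31 genes the level at 90 min was the highest of the later times, against 26.2% of all genes. In line H 29 of the 31 had that order, in line 170 27 and in line vec 16. Over all genes the shares were 21.9% in H and 27.6% in vec, with 1947 of 6165 genes in line 170.

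Histone genes, used when DNA is copied, had median differences from 0 min of -1.01, 0.88 and 0.50 at 45, 90 and 150 min. Of the 10, only the linker histone gene HHO1 was called, with levels of -2.78, -0.90, -0.04 and -0.24 and a change of 2.39 ± 0.51 (adjusted p = 0.0033, limma). In 9 of 10 the level at 90 min was the highest of the later times in line WT, as in lines H and 170. In line vec it was in 10 of 10. Over all genes 26.2% had that order in WT and 27.6% in vec. The median of their mean change was 0.12, but -0.34 with quantile normalization, -0.26 without 90 min and -0.06 without 150 min, and the list is given no direction.

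Of 21 G2/M genes, expressed before and during mitosis, 6 rose, 2 fell and 13 were not called, with a median of 0.87. CLB2, the main mitotic cyclin gene, had levels of -6.85, -3.94, -2.84 and -1.91 and rose by 3.95 ± 0.87 (15.5-fold, limma adjusted p = 0.0040). CHS2, the chitin synthase gene of the septum between mother and daughter, had levels of -3.45, -1.54, -0.71 and 0.24 and rose by 2.78 ± 0.76. SPO12 (2.28 ± 0.37) and the kinase gene KIN3 (2.19 ± 0.49) rose too, while YRO2 (-3.47 ± 0.52) and APC1 (-0.82 ± 0.23) fell. All 21 were higher at each later time than at the one before, including those below their 0-min level, against 1996 of all 6165 genes (32.4%). In line H 19 of the 21 had that order, in line 170 18 and in line vec 16. Over all genes the shares were 34.2% in H and 23.15% in vec, with 1717 of 6165 genes in line 170. The 6 called higher became 10 without the array at 45 min and 12 with quantile normalization, but 4 without 90 min and 4 without 150 min.

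Among 20 genes of the M/G1 boundary and of daughter cells, 3 rose, 1 fell and 16 were not called. CLN3, the G1 cyclin gene that starts the cycle, had levels of -5.56, -2.18, -2.27 and -2.23 and rose by 3.34 ± 0.27 (limma adjusted p = 9.3e-06). The replication licensing gene CDC6 rose by 2.21 ± 0.21 and PRY3 by 1.57 ± 0.47, and the transcription factor gene TEC1 fell by 1.98 ± 0.24. The list's median difference from 0 min was 0.02, 0.42 and 1.1 at the later times. In WT 15 of 20 were higher at each later time, in H 13, in line 170 12 and in vec 1. Over all genes the shares with that order were 32.4% in WT, 34.2% in H and 23.15% in vec, with 1717 of 6165 genes in line 170. The differences between lines in these orders were not tested.

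Cell wall protein genes rose in 19 of 36 cases with none lower, and the list's median was 0.95. UTR2, a chitin transglycosylase gene, had levels of -1.23, 1.77, 2.60 and 3.19 and rose by 3.75 ± 0.59 beside CWP1, TOS6 and CIS3. Of 25 chaperone genes 8 rose, 3 fell and 14 were not called. SSB1 and SSB2, near-identical chaperones of new proteins on the ribosome, rose by 3.18 ± 0.30 and 2.98 ± 0.24, and SSE1 rose by 2.08 ± 0.23. SSA2 had levels of 0.54, 1.59, 3.31 and 3.69, and its change of 2.33 ± 0.85 was no longer called without 90 or 150 min (2.10 and 1.91). The mitochondrial disaggregase gene HSP78 had levels of 2.48, -1.11, -0.28 and -0.32 and fell by 3.04 ± 0.46, and the small heat shock genes HSP26 (-2.37 ± 0.48) and HSP42 (-1.86 ± 0.43) fell. Of 33 proteasome genes 11 rose by small amounts, led by RPN1 (0.88 ± 0.14), and RPN4, the activator of these genes, fell by 0.93 ± 0.16. The list's median was 0.22. With quantile normalization it was 0.02, with 8 genes called higher and 4 lower. In line WT 30 of the 33 were lowest at 90 min among the later times. In line H 4 were, in line 170 6 and in line vec 19. Over all genes the shares were 16.9% in WT, 14.9% in H and 24.0% in vec, with 763 of 6165 genes in line 170. The median steps of the list in WT were small, -0.11 from 45 to 90 min and 0.22 from 90 to 150 min.

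Of 48 general stress genes in line WT, 31 were called lower, 17 were not called and none was higher, with a median of -1.80. PHM8, a nucleotidase gene, had levels of -0.37, -4.22, -4.39 and -3.78 and fell by 3.76 ± 0.40 (limma adjusted p = 4.1e-05). CYC7, the gene of the minor form of cytochrome c, had levels of 2.0, -1.65, -1.60 and -1.47 and fell by 3.57 ± 0.32. Of 21 genes of trehalose and glycogen, 15 fell and 6 were not called, with a median of -1.54. The glycogenin gene GLG1 fell by 2.94 ± 0.32, and the glycogen phosphorylase gene GPH1 by 2.75 ± 0.82. TSL1, a subunit of the trehalose synthesis complex, fell by 2.64 ± 0.47, and the glycogen synthase gene GSY1 by 2.45 ± 0.70. In these lists 29 of 48 and 12 of 21 genes were lowest at 90 min among the later times, against 16.9% of all genes.

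Genes of respiration and the TCA cycle fell in 30 of 45 cases, and ACO1 was the 1 called higher. The list's median was -1.14. NDE2, an NADH dehydrogenase gene, had levels of -1.18, -4.11, -5.07 and -5.02 and fell by 3.55 ± 0.52. QCR9 (-2.45 ± 0.40), QCR10 (-2.37 ± 0.27) and CYT1 (-2.39 ± 0.26) of the cytochrome bc1 complex fell with it. ACO1, the aconitase gene, had levels of 1.47, 3.15, 2.43 and 3.31, and its call (1.49 ± 0.52, limma adjusted p = 0.037) was lost without 45 or 150 min (1.40 and 1.32) and with quantile normalization (1.13). Of 24 glucose-repressed genes 12 fell, 2 rose and 10 were not called. The carnitine acetyltransferase gene YAT2 fell by 3.53 ± 0.52, the malate synthase gene MLS1 by 2.77 ± 0.40 and the lactate transporter gene JEN1 by 2.63 ± 0.73 (not called on the slide of WT and H alone), while ADH2 and MDH2 (1.16 ± 0.28) rose. Of 20 genes of hexose transport and glucose sensing 11 fell and 2 rose, with a median of -1.28. MTH1, a regulator of hexose transporter genes, fell by 3.14 ± 0.43, and HXT2, another transporter gene, had levels of -0.35, 2.48, 2.09 and 1.38 and rose by 2.33 ± 0.49. The hexokinase gene HXK2 (1.44 ± 0.52) was no longer called without 90 or 150 min (1.30 and 1.24), with quantile normalization (0.95), or when fitted on the WT arrays alone or with line H alone (adjusted p = 0.077 and 0.052 by limma).

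Amino acid synthesis genes under the activator Gcn4 fell in 23 of 40 cases, with SER33 (1.97 ± 0.55) the 1 called higher and a median of -1.50. ARG3, the ornithine carbamoyltransferase gene, had levels of 3.77, 1.01, -0.72 and -0.46 and fell by 3.83 ± 0.70 (limma adjusted p = 0.0014). ARG56 (-3.32 ± 0.70) and ARG4 (-3.30 ± 0.52) of arginine synthesis fell as well. Of 19 autophagy genes 13 fell and 6 were not called, and the kinase gene ATG1, which starts the process, had levels of -1.57, -3.85, -3.91 and -3.72 and fell by 2.25 ± 0.22. Of 22 genes repressed by good nitrogen sources 10 fell and 12 were not called, among them the proline permease gene PUT4 (-2.40 ± 0.35) and the activator gene GAT1 (-2.19 ± 0.48). All 6 biotin genes stood below 0 min at every later time and 5 were called, BIO5 (-3.93 ± 0.64), BIO3 (-3.23 ± 0.30), VHT1 (-2.93 ± 0.42), BIO4 (-2.54 ± 0.26) and BIO2 (-1.84 ± 0.28).

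**Figure D3:**
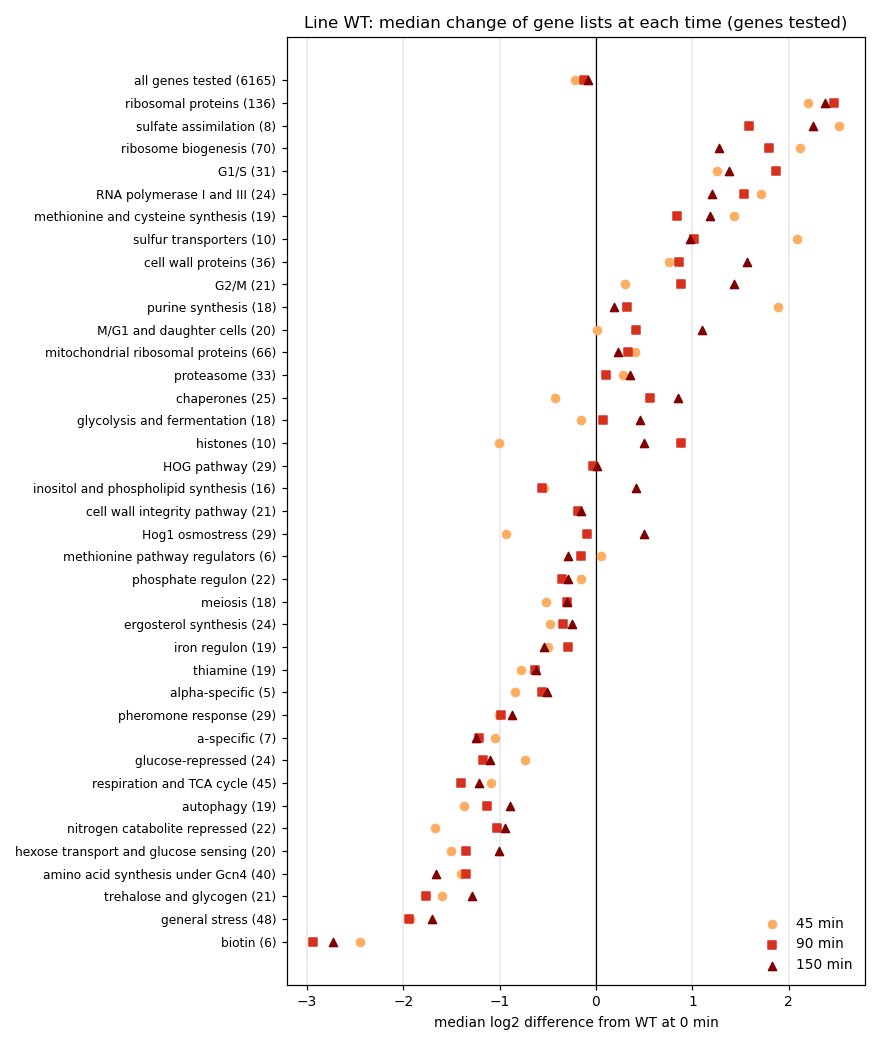
Median log2 difference from WT at 0 min for each gene list at 45, 90 and 150 min, with the number of genes tested after the name and all genes at the top. Sulfate assimilation genes lie highest at 45 min and ribosomal protein genes at 90 and 150 min, and biotin and general stress genes lie lowest at all 3. Several medians change sign between 45 and 150 min, among them those of the osmostress, histone, chaperone, glycolysis, and inositol and phospholipid lists.

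Of 29 pheromone response genes in line WT, 16 were called lower, 2 higher and 11 not, with a median of -0.87. PRM2, a gene induced by pheromone, had levels of -2.17, -4.96, -5.14 and -5.16 and fell by 2.92 ± 0.18 (limma adjusted p = 4.3e-06). FUS1, a gene of cell fusion, fell by 2.28 ± 0.20, and FUS2 by 1.40 ± 0.16. STE4, the beta subunit gene of the pheromone G protein, rose by 1.21 ± 0.20, and STE12, the transcription factor gene of the pathway, by 0.89 ± 0.16. Of 7 a-specific genes 3 fell, AGA2 (-1.38 ± 0.35), ASG7 (-1.34 ± 0.19) and MFA2 (-1.34 ± 0.38).

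Smaller metabolic groups were mixed. Of 19 iron regulon genes 4 rose (21.05%) and 7 fell (36.8%), against 20.0% higher and 27.4% lower over all genes. The siderophore transporter gene SIT1 had levels of -3.45, -0.69, 0.36 and -0.33 and rose by 3.23 ± 0.65, the ferroxidase gene FET3 rose by 2.27 ± 0.54, TIS11 by 1.71 ± 0.42 and the iron permease gene FTR1 by 1.21 ± 0.36. The heme oxygenase gene HMX1 fell by 3.29 ± 0.37. Of 24 ergosterol genes 8 fell (33.3%) and 3 rose (12.5%). ERG28 (-1.81 ± 0.29) was lowest, and ERG6 (1.04 ± 0.20), ERG4 (0.90 ± 0.24) and NCP1 (0.64 ± 0.17) were the 3 that rose. Of 18 purine genes 3 rose (16.7%), all of the branch to guanine nucleotides. They were IMD4 (3.38 ± 0.77), IMD3 (2.67 ± 0.71) and GUA1 (2.65 ± 0.57), while BAS1, an activator gene of the pathway, fell by 1.68 ± 0.36. The purine list's median difference was 1.89, 0.32 and 0.19 at 45, 90 and 150 min. Of 18 genes of glycolysis and fermentation, 15 were higher at each later time than at the one before, against 32.4% of all genes. PDC5 of ethanol fermentation was the 1 called higher (1.68 ± 0.27). PDC6 (-1.13 ± 0.38), PYK2 (-1.05 ± 0.37) and TDH1 (-0.81 ± 0.28) were called lower. The calls of PDC6 (-1.10 and -1.09), PYK2 (-0.92 and -0.96) and TDH1 (-0.66 and -0.76) were lost without 45 and without 90 min. TDH1 was also no longer called with median scaling (-0.70). The list's median was 0.19, but -0.48 with quantile normalization and -0.09 without 150 min.

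The kinase that HOG1 encodes is best known for the osmostress genes, so those of the naming rule are given with their levels in line WT. GPD1, which encodes the enzyme of the first step to glycerol, had levels of 0.91, 1.56, 2.99 and 3.70. Every later array lay above 0 min and each lay above the one before, with a change of 1.84 ± 0.76 (adjusted p = 0.068, limma). Without the array at 45 min it was 2.44 and passed the test. STL1, the glycerol importer gene, had levels of -8.34, -8.48, -5.26 and -3.79 and was not well above background at 0 and 45 min. As read, its mean over the later times was 5.65-fold that at 0 min (adjusted p = 0.15, limma). This size is uncertain, since the 0-min and 45-min values were not well above background. Without 45 min the difference as read was 3.82 in log2 units and passed the test, still set against that 0-min value. GRE2, a methylglyoxal reductase gene, had levels of -1.57, -1.09, -0.02 and 1.87, with a change of 1.83 ± 1.01 (adjusted p = 0.16). Without 45 min it was 2.50 and passed.

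The other osmostress genes followed no single course. GPP1, a glycerol-phosphate phosphatase gene, had levels of 2.75, 4.37, 4.83 and 5.20 and rose by 2.05 ± 0.35 (limma adjusted p = 8.5e-04). Its paralog GPP2 had levels of 0.59, -0.46, 0.17 and 1.12, so that the later arrays lay on both sides of 0 min, and its change was -0.31 ± 0.50 (adjusted p = 0.63, limma). The small heat shock protein gene HSP12 had levels of -1.57, -0.36, -0.38 and 0.14, with a change of 1.37 ± 0.84 (adjusted p = 0.20, limma). CTT1, the cytosolic catalase gene, had levels of 0.03, -2.36, -2.22 and -2.09 and fell by 2.25 ± 0.29 (adjusted p = 1.4e-04, limma). PNS1, a membrane protein gene, had levels of -1.85, -0.23, 0.29 and 1.14 and rose by 2.25 ± 0.50.

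Of the 29 osmostress genes as a list, 5 were called higher (17.2%), 11 lower (37.9%) and 13 not, against 20.0% higher and 27.4% lower over all genes. The 5 are GPP1, CWP1, PNS1, the sodium pump gene ENA1 (1.12 ± 0.22) and the peroxiredoxin gene AHP1 (0.84 ± 0.28). The 11 include SIP18 (-2.55 ± 0.28), HOR7 (-2.31 ± 0.50) and PGM2 (-2.27 ± 0.43). The list's median difference from 0 min was -0.94, -0.10 and 0.50 at 45, 90 and 150 min, against -0.22, -0.12 and -0.08 over all genes. In WT each later time was higher than the one before in 19 of the 29, against 32.4% of all genes. In H and in vec 10 of 29 (34.5%) had that order, against 34.2% of all genes in H and 23.15% in vec. In line 170 it was 6 of 29, against 1717 of all 6165 genes. The median of the list's mean change in WT was -0.15, but 0.20 without 45 min and -0.62 without 150 min.

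Among 29 genes of the HOG pathway itself, 6 rose (20.7%), HOG1 included, and 7 fell (24.1%), shares near the 20.0% and 27.4% of all genes. SHO1, an osmosensor gene, had levels of -0.96, 0.67, 1.06 and 0.78 and rose by 1.80 ± 0.21 (limma adjusted p = 7.7e-05). The transcription factor gene SMP1 fell by 1.70 ± 0.16, SKO1 by 0.80 ± 0.22 and the MAP kinase kinase kinase gene SSK22 by 1.13 ± 0.24. MSN4 (-1.33 ± 0.45) was no longer called without 45 or 90 min (-1.30 and -1.31). Of 21 genes of the cell wall integrity pathway 4 rose (19.05%) and 7 fell (33.3%), against 20.0% and 27.4% of all genes. KDX1, a kinase gene switched on by that pathway, had levels of -1.36, -0.46, 0.50 and 1.79. Its change of 1.97 ± 0.72 (adjusted p = 0.044, limma) was no longer called without 90 min (2.03) or 150 min (1.39). The sensor gene WSC2 rose by 2.12 ± 0.48, SWI4 by 1.32 ± 0.27 and the GTPase gene RHO1 by 0.95 ± 0.12, and the phosphatase gene SDP1 fell by 1.68 ± 0.20.

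**Figure D4:**
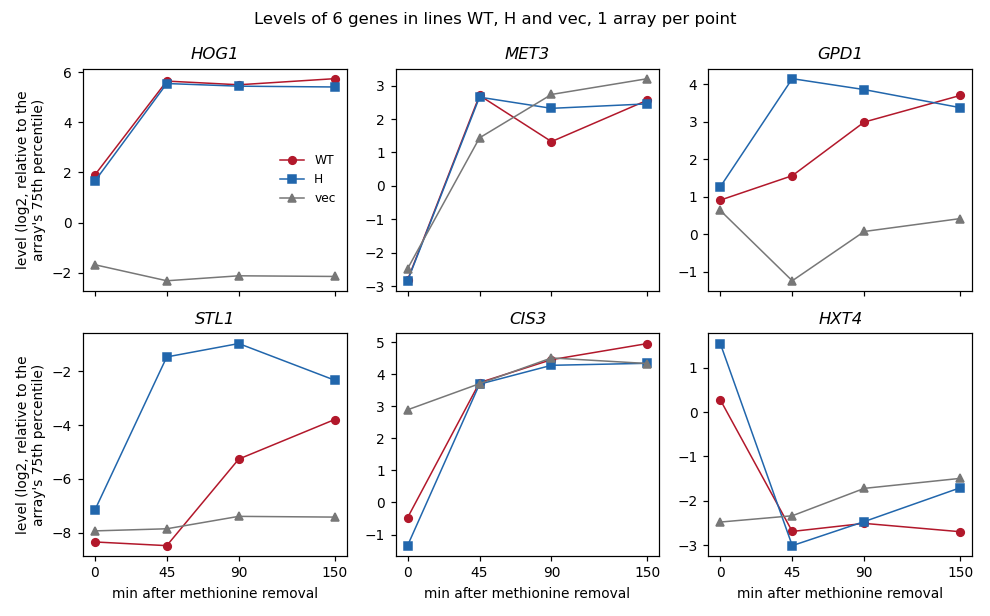
Levels (log2 relative to the array's 75th percentile) of HOG1, MET3, GPD1, STL1, CIS3 and HXT4 against min after methionine removal in lines WT, H and vec, with 1 array per point. HOG1 is high in WT and H after 0 min, STL1 and GPD1 climb later in WT than in H, and CIS3 and HXT4 differ between WT and vec mainly at 0 min.

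Single times carry no test, since each is 1 array. At 45 min 2279 genes (37.0%) were at least 2-fold from 0 min, 15.6% higher and 21.3% lower. At 90 min there were 2288 (37.1%), 17.3% higher and 19.8% lower, and at 150 min 2020 (32.8%), 15.2% higher and 17.5% lower. Of the 963 that were higher by 2-fold at 45 min, 707 still were at 150 min, and of the 1316 that were lower, 855 still were. At all 3 times 1530 genes (24.8%) were at least 2-fold from 0 min the same way, 699 higher (11.3%) and 831 lower (13.5%), of which 681 and 813 were also called. The median SD of a gene's 3 later differences was 0.21, and the median size of its difference from 0 min was 0.72, 0.72 and 0.67 at the 3 times. Between 45 and 90 min 289 genes moved by at least 2-fold, and between 90 and 150 min 106 did.

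Some genes had left their 0-min level at 45 min and were back within 0.5 log2 units of it at 150 min, counting genes well above background at these times. Of the 48 that stood higher at 45 min, ADE57, ADE13 and ADE1 of purine synthesis were among the 6 largest. ADE57 had levels of 1.12, 3.54, 2.0 and 1.52, and ADE13 of 0.10, 2.09, 0.37 and 0.13. MUP3, a low-affinity methionine permease gene, had levels of -1.21, 1.07, -1.08 and -0.93. The phosphate transporter gene PHO89 and ATO3 were the others with a large early peak. Of the 113 that stood lower at 45 min, HXT1, a low-affinity glucose transporter gene, had levels of 3.63, 1.38, 3.53 and 4.13. FAS2, a fatty acid synthase subunit gene, had levels of 3.31, 1.37, 2.11 and 3.17, and XKS1, TPO3, HPF1 and THI4 were also among the 6 largest.

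Other genes were near their 0-min level at 45 min and at least 2-fold from it at 150 min. There were 85 above 0 min and 55 below. LYS9 of lysine synthesis had levels of 0.81, 1.12, 4.62 and 5.08, and the arginase gene CAR1 had levels of 1.33, 1.30, 3.69 and 3.96. YHP1, a repressor gene of the cell cycle, had levels of -4.73, -4.33, -2.56 and -1.99, and GRE2, MRH1 and NFG1 were the others of the 6. On the low side POX1, the peroxisomal acyl-CoA oxidase gene, had levels of -2.25, -2.66, -4.76 and -5.46. The carnitine carrier gene CRC1 had levels of -1.35, -1.80, -3.79 and -4.17, and SNZ1 of vitamin B6 synthesis of 4.47, 4.75, 2.37 and 1.67. STR3 of the path between cysteine and methionine had levels of -0.23, -0.37, -2.49 and -2.96, and VID24 and SPL2 completed the 6.

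Only 5 genes were at least 2-fold on opposite sides of 0 min at 45 and 150 min. PHO84, the high-affinity phosphate transporter gene, was the 1 that stood above first, with levels of -2.68, 0.62, -1.86 and -3.83. DUR12, the urea amidolyase gene, had levels of 1.14, -1.58, 1.08 and 2.27, and RTC3, an osmostress gene, of -2.17, -3.86, -1.53 and 0.68. The cell wall mannoprotein gene TIR3 had levels of -1.27, -2.42, -0.85 and 0.06, and TDA6 of -2.36, -3.63, -2.97 and -1.19. None of the 29 genes named here for these courses passed the test of the mean change. When the fit also held a term for time, 17 of them passed, among them LYS9, ATO3 and FAS2. These genes were picked for moving between the later times. That term takes such movement out of the error where the lines share it, so their passing adds no support for a steady change. Without the array at 45 min the mean of POX1 passed (-2.86) beside that of GRE2, and without 150 min that of TPO3 did (-1.89).

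**Figure D5:**
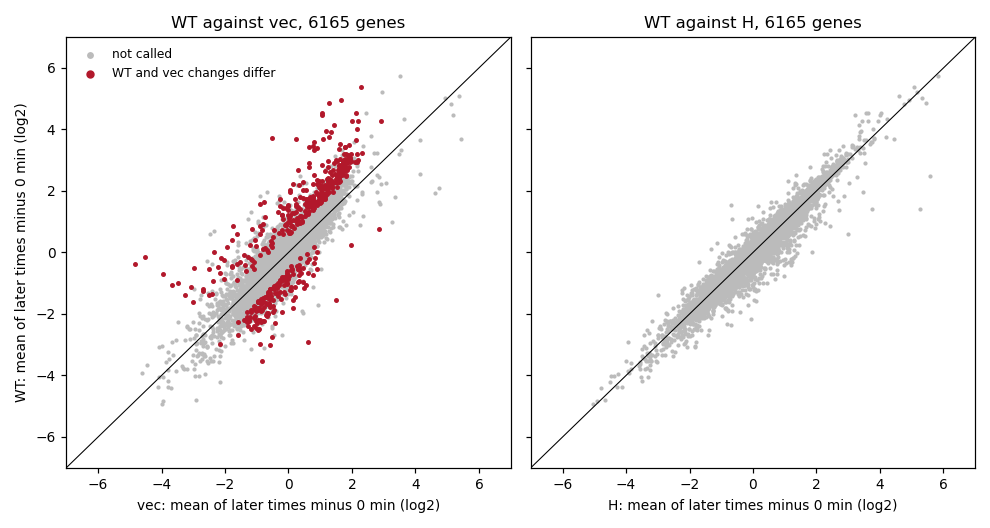
Mean of the later times minus 0 min (log2) in line WT against that in line vec (left) and in line H (right), with a point for each of 6165 genes and a diagonal of equal change. Points in red are the 512 genes called in WT minus vec, most of them above the diagonal, and no gene is called in WT minus H.

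The next comparison asks where the change in WT differed from that in vec, which has no introduced HOG1. Of 6165 genes 512 (8.30%) were called by limma, 349 with the larger value in WT (5.66%) and 163 with the smaller (2.64%). Ribosomal protein genes made up 77 of the 349, with a median WT change of 2.34 and a median vec change of 1.56. Of 36 cell wall protein genes 14 were among the 349, with medians of 0.95 in WT and 0.28 in vec, and so were 8 of 21 G2/M genes, with medians of 0.87 in WT and 0.28 in vec. Of 22 genes repressed by good nitrogen sources 9 were among the 163, with medians of -1.24 in WT and -0.19 in vec. Of 45 respiration genes 13 were among the 163, with medians of -1.14 in WT and -0.64 in vec. None of the 29 osmostress genes was among the 349, with medians of -0.15 in WT and -0.80 in vec. The median of their change in WT minus that in vec was 0.49, against 0.01 over all genes. MSN1, with a change of -1.47 in WT and -0.80 in vec, was the 1 among the 163. Of the osmostress genes named above, CTT1 (1.24 ± 0.40), CWP1 (2.23 ± 0.72) and GPD1 (2.73 ± 0.90) came nearest to the threshold, with adjusted p = 0.089, 0.090 and 0.096 by limma.

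Beside HOG1, the 5 genes with a symbol and the highest called difference from vec lay further from vec at 0 min than later. CIS3 had levels of -0.48, 3.74, 4.45 and 4.96 in WT, against 2.89, 3.70, 4.51 and 4.33 in vec. The later arrays of the lines overlapped while the 0-min arrays lay 3.37 apart, and the change in WT minus that in vec was 3.57 ± 0.26 (limma adjusted p = 8.3e-04). INO1, the inositol-phosphate synthase gene, had levels of -2.71, -2.20, -3.91 and -2.46 in WT, against 2.90, -1.63, -3.33 and 0.12 in vec. It did not pass the test in WT (-0.15 ± 1.27, adjusted p = 0.93), and its difference of 4.37 ± 0.84 followed its high value in vec at 0 min. PCL1 had levels of -4.68, -1.27, 0.49 and 0.13 in WT, against -0.90, -0.05, 0.34 and 0.20 in vec, a difference in change of 3.40 ± 0.51. ALD6 (3.46 ± 0.42) and PHO3 (3.28 ± 0.57) were likewise below vec at 0 min, by 3.04 and 3.48, and within 0.42 of it in the later means.

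On the other side, HXT4, a glucose transporter gene, had levels of 0.27, -2.69, -2.51 and -2.69 in WT, against -2.48, -2.34, -1.72 and -1.49 in vec. The difference in change was -3.53 ± 0.47 (limma adjusted p = 0.0067), and the lines were 2.75 apart at 0 min. ARO10, a decarboxylase gene of aromatic amino acid breakdown, had levels of 1.95, -1.41, -1.99 and -1.40 in WT, against 1.15, 0.11, 0.14 and 0.70 in vec. Here the later arrays of the lines did not overlap and the 0-min arrays lay 0.80 apart, with a difference in change of -2.71 ± 0.41. ARO9, the aminotransferase gene of the same path, had levels of 1.58, -1.27, -1.39 and -0.80 in WT, against 1.21, 0.47, 0.57 and 1.06 in vec, a difference of -2.22 ± 0.31. The proline oxidase gene PUT1 (-1.93 ± 0.27), NRS1 (-2.06 ± 0.36), with 2 of 3 later WT arrays well above background, and the methionine sulfoxide reductase gene MXR1 (-2.09 ± 0.46) completed the 6 lowest with a symbol. Of the genes without one, YOR387C (4.47), YNL058C (3.45) and YAL066W (-3.05) had the largest differences and also lay further from vec at 0 min.

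Among the 512 called genes, 443 (86.5%) had a larger gap between WT and vec at 0 min than over the later times, against 66.3% of all genes. WT and vec lie on different slides, and each line has 1 array at 0 min, so a difference at 0 min cannot be told apart from that array. Without the term for time in the fit 4 genes were called, without WT at 90 min 231 and without WT at 150 min 229. The 4 are HOG1, KTR2 (1.91), PRM1 (2.49) and YOR387C (4.47), the last 3 named after their values were seen. The share of called genes with the larger value in WT was 68.2%, but 50.2% with normexp and 53.3% with quantile normalization, and is therefore given with no overall direction.

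The last comparison sets the change in WT against that in H, which shares the slide and the promoter. No gene of 6165 was called (0%) by limma, the lowest adjusted p was 0.75, and 319 genes (5.17%) had an unadjusted p under 0.05. HOG1 had levels of 1.90, 5.64, 5.49 and 5.74 in WT, against 1.65, 5.54, 5.44 and 5.41 in H, a difference in change of -0.08 with a 95% interval of -0.50 to 0.33. STL1 had levels of -8.34, -8.48, -5.26 and -3.79 in WT, against -7.16, -1.47, -0.97 and -2.33 in H. At every later time WT lay below all 3 later H arrays, and since WT was not well above background at 0 and 45 min, no size is given for the difference in change. GPD1 had levels of 0.91, 1.56, 2.99 and 3.70 in WT, against 1.26, 4.15, 3.86 and 3.38 in H. WT stood below H at 45 and 90 min and above it at 150 min, and the interval was -2.72 to 1.35 around -0.69.

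GRE2 stood at 1.87 at 150 min in WT, against 2.26 in H, and at -1.09 at 45 min in WT, against 2.0 in H. Its difference in change was -1.06, with an interval of -2.90 to 0.79. HSP12 (-1.35, interval -4.05 to 1.34) and GPP2 (-1.1, interval -2.71 to 0.51) had wide intervals too, and CTT1 (0.24, interval -0.66 to 1.14) a narrower one. Across the 6165 genes the changes in WT and H had Pearson's r of 0.96 and Spearman's rho of 0.95, and 104 genes (1.69%) differed by at least 2-fold. For WT and vec r and rho were 0.87 and 477 genes (7.74%) differed by at least 2-fold. Genes are not independent replicates, and these values describe the arrays only.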

How the data were processed

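Total RNA of 16 yeast samples, 4 lines at 4 times, was measured on single-colour Agilent arrays of 6256 probes, 2 slides of 8 arrays. Cy3 was the label, by Agilent's own protocol, per the labels. Per the file headers, the deposited intensity of each spot is the processed signal of Agilent Feature Extraction 10.7.1.1, after background subtraction and not scaled between arrays. The deposited value table holds log2 values, already centred per probe as the values show, and served as an alternative within a slide.

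Here log2 of the processed signal was averaged over a probe's spots, leaving out a non-uniform spot where the other was uniform, and the array's 75th percentile was subtracted. The brightest probe stood for each of 28 genes with several. A gene was tested if at least 3 of the 16 arrays had it well above background, which held for 6165 of 6227. Gene names are those of the files, with 5738 systematic names found in RefSeq's table, used only to update names. No positions or sequences are given.

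Two-sided tests used lmFit and eBayes of limma 3.58.1 under R 4.3.3, and p-values were adjusted over the 6165 genes by the method of Benjamini and Hochberg. The mean of the later WT times minus 0 min came from a fit of 8 means (line by 0 min or later) to 16 arrays. Differences between lines in that change came from a fit that also holds the time, each line's level and each line's own later shift. The fits were run on simulated arrays with independent noise, of the same spread at 0 min as later. Such arrays cannot show how much the single 0-min arrays vary. The p-values rest on 1 array per line and time, which limits the precision. WT and H share a slide, vec and line 170 the other, and time goes with the place on the slide.

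The rule for naming genes takes HOG1, MET3 and 7 osmostress genes, the 12 highest and 12 lowest called changes of genes with a symbol and the same sign at 3 of 3 times, the 6 highest and 6 lowest so called in each comparison of lines, up to 4 called members per list and up to 2 the other way, and up to 6 genes per pattern over time. Members that complete a count of 5 or fewer were named after their values were seen. The members and the 39 gene lists were chosen with earlier results of these data known. A gene that was not well above background at 0 min is given as read, and its size is called uncertain. Alternatives changed the background correction, the scaling, the variance prior, the filter, how several probes were joined, the threshold, the terms, the arrays and the values used.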

Additional observations from a re-analysis of the deposited data

Results flagged for a closer look

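The change over time differed between line WT and line vec, by a test of the difference itself, for 512 of 6165 genes (limma). Among called genes with a symbol, as the naming rule asks, the change in WT minus that in vec was highest for INO1 (4.37), HOG1 (4.24), CIS3 (3.57), ALD6 (3.46), PCL1 (3.40) and PHO3 (3.28). HOG1 is the introduced gene, and the other 5 lay further below vec at 0 min than over the later times. YOR387C (4.47) and YNL058C (3.45), which have no symbol, belong among the highest by size, and YAL066W (-3.05) and YMR082C (-2.43) among the lowest. The lowest were HXT4 (-3.53), ARO10 (-2.71), ARO9 (-2.22), MXR1 (-2.09), NRS1 (-2.06) and PUT1 (-1.93). Of these, ARO10, ARO9, and NRS1 lay further from vec over the later times than at 0 min, by 1.91, 1.85 and 1.11 below it. MXR1, HXT4 and PUT1 lay further from vec at 0 min, where they were above it by 1.14, 2.75 and 1.44. The part of the single 0-min arrays in these differences was not tested. Groups of 1 array allow no search for outlying arrays within a group.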

How the results depend on the processing

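The count of genes called between the later times and 0 min in WT stayed within 1.5 times of 2926 in every alternative run except the stricter threshold of 0.01 (1908). It was 2139 on the 4 WT arrays alone, 2445 on the slide of WT and H alone, 4148 with a term for time, and 2493 to 2796 without 1 of the later arrays. The count at least 2-fold the same way at 3 times ran from 1401 to 1869. Of the 219 genes named or eligible by rule, 199 kept their side of the threshold on the 4 WT arrays alone, 203 on the slide of WT and H and 211 with quantile normalization. On that slide the calls of SSA2, ROM1, MTL1, ROM2, KDX1, ACO1, JEN1, HXK2, PYK2, TDH1, DUR3, PHO4, VTC4, THI2 and PRE7 were lost. On the 4 WT arrays alone those of SER33, APC1, SKO1, PIS1, ITR2, RPL15B, RSM22, PRE9 and PUP1 were lost. So were those of SSA2, MTL1, ROM2, KDX1, JEN1, HXK2, PYK2, TDH1, VTC4 and PRE7. GPD1 passed with median scaling (1.95). With a term for time 18 of the 219 newly passed. They were GPD1 and 17 of the 29 genes named for their course over time, GRE2 among them. That term takes the movement for which the 29 were named out of the error where the lines share it. HSP12 passed on the 4 WT arrays alone (adjusted p = 0.027) and on the slide of WT and H alone (adjusted p = 0.023).

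The count of genes called in WT minus vec moved most. It was 888 with normexp, 916 with quantile normalization, 89 at the threshold of 0.01, 4 without the term for time, 430, 231 and 229 without WT at 45, 90 and 150 min, and 494 to 565 under the other filters, probes, prior and median scaling. MXR1 lost its call without 90 and without 150 min (-1.91 and -2.11), and without the term for time HOG1 alone of the 12 named kept its call. On the slide of WT and H alone this comparison could not be fitted, and WT minus H gave 0 calls in each of the 13 alternatives run. Signs reversed for mean changes that did not pass the test. Without 45 min these were DUR12 (0.54), GPP2 (0.059), HXT1 (0.20), PHO84 (-0.16) and TDA6 (0.28), and without 150 min RTC3 (-0.53) and TIR3 (-0.37). INO1 became 0.034 with quantile normalization and 0.38 without 90 min, MET3 in WT minus vec -0.33 without 45 min, and MET3 in WT minus H 0.14 without 90 min. The cause was not tested. The order of the later times in the gene lists was recounted with normexp, median scaling and quantile normalization, alternatives chosen after seeing the data, and each count stayed within 1.5 times.

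No paired analysis by replicate was possible because the labels give no replicate numbers and each line and time has 1 array. Lines were matched by time through the term for time. Dim genes limit the early values, since 314 genes were not well above background at 45 min.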

Other observations

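Of 19 thiamine genes in line WT 6 fell (31.6%) and 2 rose (10.5%), with a median of -0.64. Over all genes 27.4% were called lower and 20.0% higher. The transporter gene THI72 had levels of -2.38, -4.61, -4.45 and -4.55 at 0, 45, 90 and 150 min and fell by 2.16 ± 0.20 (limma adjusted p = 1.7e-05), while SNZ2 rose by 1.0 ± 0.16. Of 22 genes of the phosphate regulon 6 fell (27.3%) and 2 rose (9.09%). PHO8, the vacuolar alkaline phosphatase gene, had levels of 1.54, -0.11, -0.04 and 0.02 and fell by 1.58 ± 0.15, and GIT1, a glycerophosphoinositol transporter gene, fell by 1.61 ± 0.26.

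Of 18 meiotic genes 6 fell (33.3%) and 1 rose (5.56%), against 27.4% lower and 20.0% higher over all genes. RED1, a chromosome axis gene, had levels of -0.00, -1.63, -1.53 and -1.50 and fell by 1.55 ± 0.19, and SPO13 rose by 1.40 ± 0.25 from a level of -7.29 at 0 min. Of 16 genes of inositol and phospholipid synthesis 13 were not called. PIS1, the phosphatidylinositol synthase gene, rose by 0.55 ± 0.13, the inositol transporter gene ITR2 rose by 0.69 ± 0.16, and the activator gene INO4 (-1.50 ± 0.50) was no longer called without 45 or 90 min (-1.36 and -1.39). Their median difference from 0 min was -0.54, -0.56 and 0.41 at 45, 90 and 150 min.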
